A study of Homo sapiens with 60 samples.

Results

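Interferon-stimulated genes were examined in HT29, an established human colorectal adenocarcinoma cell line, by RNA sequencing 24 h after exposure to herbal water extracts. The members were 39 genes named by symbol, in a list chosen with earlier results of these data known. All 39 were found among the 60675 genes of the count table and passed the filter on low counts that left 16485 genes. Single herbs were Cimicifugae Rhizoma (here cimicifuga), Citri Unshius Pericarpium (citrus peel), Aconiti Lateralis Radix Preparata (aconite) and Bupleuri Radix (bupleurum). The mixtures comprised Bojungikgi-tang, Banhasasim-tang and Yijung-tang, and every extract was given at 500 µg/mL (high dose), 100 µg/mL (medium) and 20 µg/mL (low). Vehicle was 0.1% DMSO per the sample labels, although the series' design text gives another concentration. There were 19 groups of 3 libraries (vehicle and 6 extracts at 3 doses) and 1 library for each dose of Bojungikgi-tang. All groups are the same cell line, and the labels name no interferon, virus or other inducer among the agents.

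Interferons bind receptors whose kinases phosphorylate STAT proteins. The STAT heterodimer joined by IRF9 forms ISGF3, the factor that binds the interferon-stimulated response element (ISRE) in the promoters of many antiviral genes, whereas STAT homodimers bind the GAS element. Epithelial cells express a low basal level of many of these genes without added interferon, and several of the products (IRF9, the STATs, the RNA sensors) are themselves parts of the pathway.

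Promoters of the members were searched as a description, since the ISRE is a known element of many interferon-stimulated genes. The ISRE core was searched as GAAA, any 2 bases, GAAA and the GAS core as TTC, any 3 bases, GAA, on both strands, in RefSeq promoters of GRCh38.p14 from 250 bases before to 50 bases after each start. Promoters were found for 33 of the 39 members (44 starts), and 22 of these 33 held an ISRE core in at least 1 promoter, 66.7% against 4.38% of the 27305 genes with a promoter there. Counted over promoters, 26 of 44 held it, against 3.57% of 35116. GAS cores were found for 11 of the 33 members, 33.3% against 9.38% of those genes, and the searched cores can overlap each other. The 150 bases before the start are shown for 5 members with a core, in capitals. Of these, 4 were lower at the high than at the low dose of aconite (below), and ISG15 did not pass that test. IRF9, the member with the smallest adjusted p, is shown because the ISRE core is not in its window. It does hold a GAS core, and GAS cores are left unmarked in these sequences. In IFIT1 the cores read on the opposite strand, so the capitals there are their reverse complement.
IFI44L, chr1:78620298-78620447, plus strand: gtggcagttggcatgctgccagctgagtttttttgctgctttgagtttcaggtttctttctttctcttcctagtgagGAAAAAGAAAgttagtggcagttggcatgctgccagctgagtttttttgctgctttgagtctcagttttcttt
IFIT1, chr10:89392473-89392622, plus strand: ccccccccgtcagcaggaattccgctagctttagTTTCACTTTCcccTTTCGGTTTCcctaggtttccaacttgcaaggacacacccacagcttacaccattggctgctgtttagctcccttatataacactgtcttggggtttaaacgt
DDX60, chr4:168318753-168318902, minus strand: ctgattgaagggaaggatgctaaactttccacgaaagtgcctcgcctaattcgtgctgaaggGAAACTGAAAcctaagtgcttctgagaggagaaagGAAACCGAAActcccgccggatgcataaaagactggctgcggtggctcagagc
EPSTI1, chr13:42992242-42992391, minus strand: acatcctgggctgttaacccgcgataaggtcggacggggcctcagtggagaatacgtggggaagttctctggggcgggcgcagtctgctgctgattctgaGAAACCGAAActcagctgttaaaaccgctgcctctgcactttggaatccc
ISG15, chr1:1013347-1013496, plus strand: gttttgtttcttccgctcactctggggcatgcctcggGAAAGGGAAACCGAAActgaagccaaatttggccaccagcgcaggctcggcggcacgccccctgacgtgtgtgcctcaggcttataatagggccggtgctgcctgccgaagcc
IRF9, chr14:24161115-24161264, plus strand: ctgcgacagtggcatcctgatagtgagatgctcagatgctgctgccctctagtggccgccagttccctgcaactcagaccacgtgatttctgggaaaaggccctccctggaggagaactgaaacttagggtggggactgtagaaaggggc

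Levels are given as CPM, counts per 1e6 counts of the TMM-scaled library total, unless called unscaled. Divided by annotated exon length in kb, the mean over 57 libraries was highest for BST2 (tetherin, which holds budding virions at the membrane) at 47.5 CPM per kb, then ISG15 at 27.4, IFI6 at 22.8 and IFITM2 at 21.7. At the other end lay SAMD9L at 0.0417 CPM per kb, RSAD2 at 0.112, XAF1 at 0.145 and IFI44L at 0.155. Counts behind the members ran from 0 (XAF1 in 1 library) to at least 1189 in every library (PARP14), so folds of XAF1, SAMD9L, RSAD2, IFITM1, EPSTI1 and IFI44L rest on few reads in some libraries. Between groups of 3 libraries, the ratio of the highest to the lowest mean was 8.75 for XAF1, 5.74 for IFI44L, 4.67 for EPSTI1, 4.36 for SAMD9L and 4 for OAS2, and only 1.25 for IFITM2, 1.26 for IRF1 and 1.29 for IFI35. The highest group mean was Banhasasim-tang at the low dose for 20 of the 39 members, at the medium dose for 7 and at the high dose for 6. The lowest was aconite at the high dose for 18, bupleurum at the high dose for 9 and citrus peel at the high dose for 7.

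**Figure D1:**
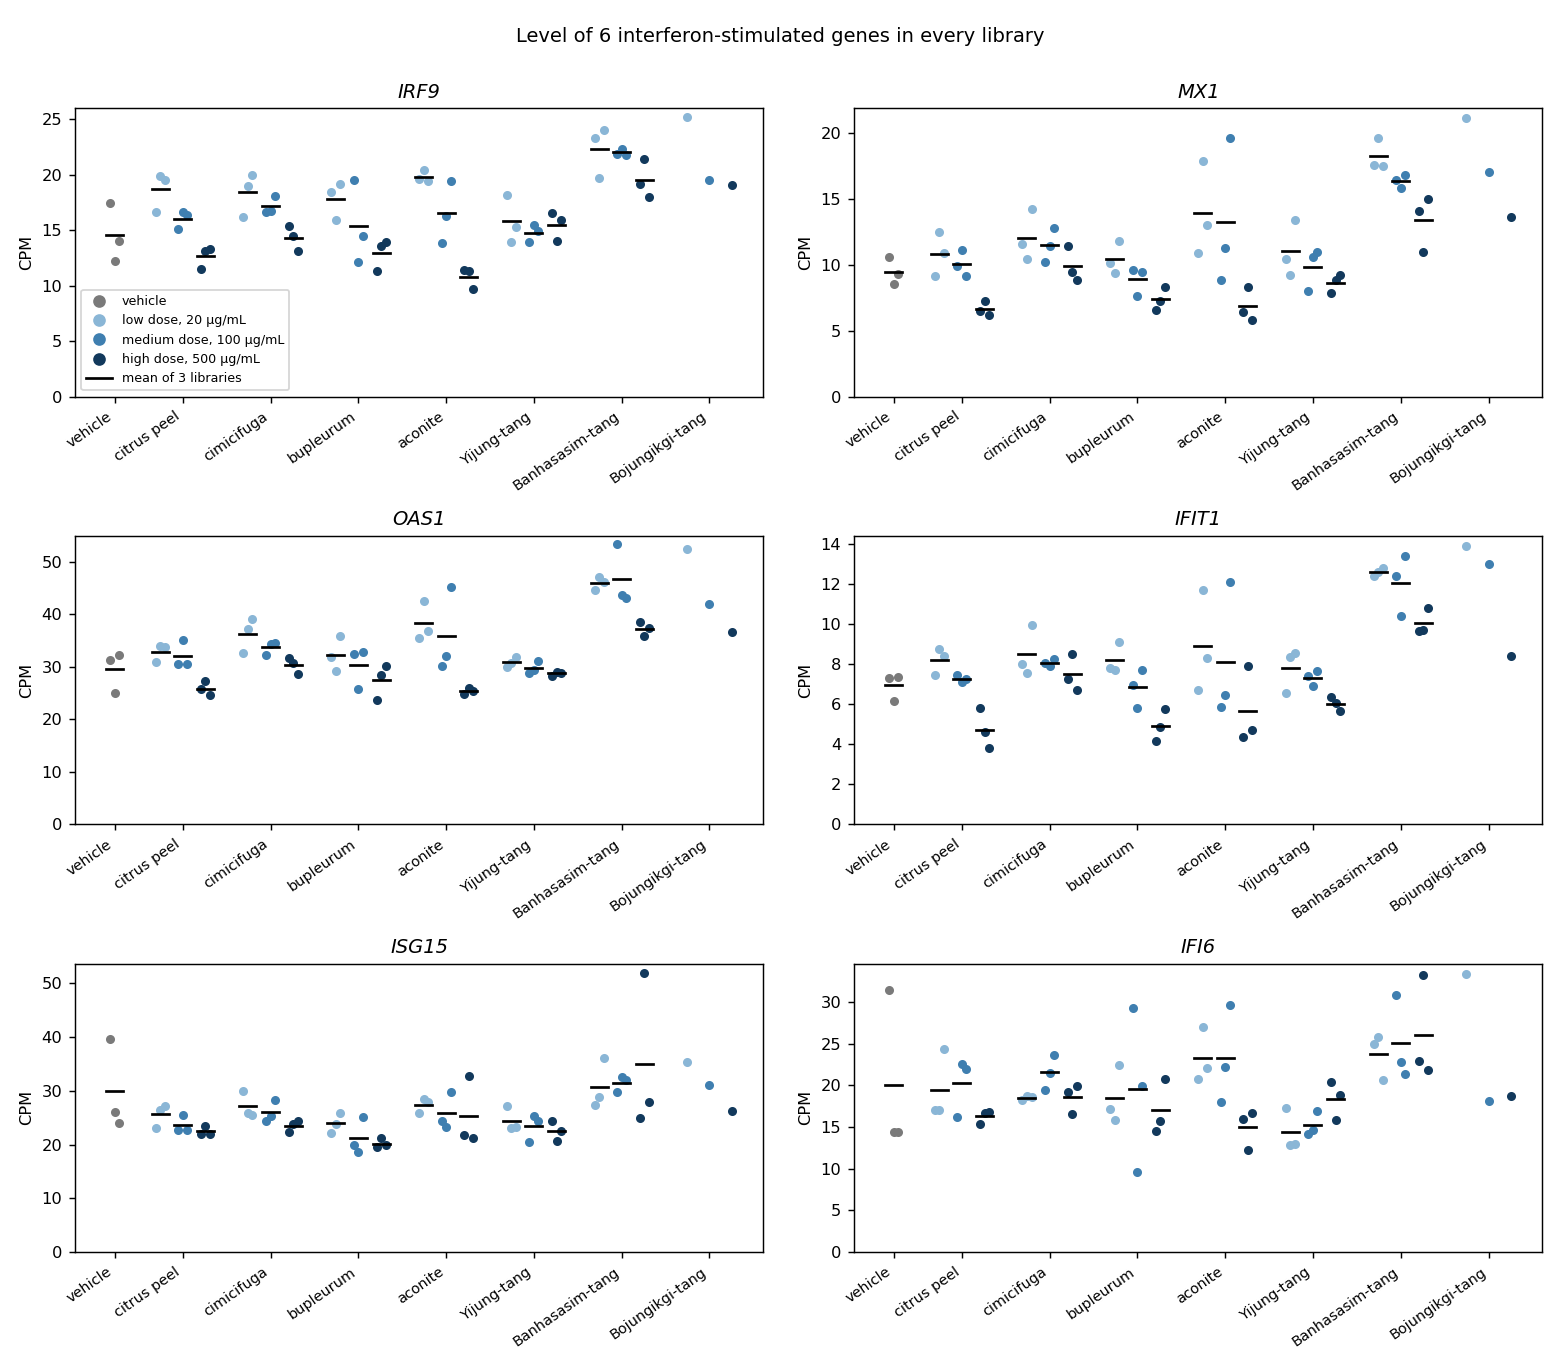
Levels (CPM, y axis from 0) of 6 members in every library, by extract and dose (x axis). Each point is 1 library and bars are means of 3 libraries. IRF9 at the high dose of aconite sits between 9.74 and 11.4 CPM, below its 19.4 to 20.4 CPM at the low dose, while single libraries of ISG15 and IFI6 stand high in vehicle and Banhasasim-tang.

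All 60 titles carry the same batch name. Library totals ran from 10.35 to 40.05 M counts (M, 1e6; median 23.83). Sample descriptions carry codes read here as library sets: vehicle is set B1, citrus peel and cimicifuga set 5, bupleurum and aconite set 6, Yijung-tang and Banhasasim-tang set 7, and Bojungikgi-tang set 8. Median totals were 22.08 M in set B1, 29.82 in set 5, 28.4 in set 6, 16.38 in set 7 and 13.72 in set 8. Depth thus differs between sets, and its part in the numbers of calls was not tested. RN7SL2, an RNA component of the signal recognition particle, lay at 3.44 to 9.9 CPM in 15 libraries and at 40.9 to 238 CPM in the other 42. The 15 are the vehicle libraries and replicates 1 and 2 of citrus peel and cimicifuga. In 3 libraries the median cytosolic ribosomal protein gene stood above its mean by 0.39 (vehicle 1), 0.68 (aconite high 2) and 0.62 (Banhasasim-tang high 2) on the log2 scale, and together with bupleurum medium 2 these are called the 4 libraries that stand apart. ISG15 read 39.7, 32.8 and 52 CPM in those 3 libraries, the highest value of each group. Ranges of markers and interferon genes in this paragraph are unscaled CPM, counts per 1e6 of the all-gene total without TMM scaling. Sums of marker lists are unscaled throughout. The 10 markers of colorectal epithelium were all tested and summed to between 10310 and 13210 CPM, most of it from KRT8 and KRT18. Among leukocyte markers PTPRC, CD3E and NKG7 had at most 4 counts in any library, while CD14 read 2.04 to 4.57 CPM, CD68 3.4 to 11.1 and LYZ 1176 to 2203. Of 6 fibroblast markers COL1A2, COL3A1, DCN and PDGFRB had at most 3 counts, while COL1A1 read 0.314 to 2.03 CPM and LUM 0.413 to 2.26. Of 4 endothelial markers VWF, CDH5 and KDR had at most 3 counts, while PECAM1 read 0.942 to 2.73 CPM. Of 9 interferon genes only IFNE passed the filter, at 3.01 to 7.74 CPM, and the other 8 had at most 9 counts in any library. The labels leave unstated whether the 3 libraries of a group came from separate cultures, and p-values then measure the spread between libraries, which may be technical.

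The first comparison asks how the members differ between the high and the low dose of an extract, within 1 library set. In aconite 21 of the 39 members fell and 0 rose, with a median log2 fold change over all 39 of -0.53 against 0.01 over all genes tested (edgeR quasi-likelihood, all 57 libraries in the fit, called at a Benjamini-Hochberg adjusted p under 0.05). Over all genes, 5.03% fell in that comparison and 5.81% rose. In 22 members every high-dose library lay below every low-dose library, against 9.87% of all genes. The 21 were spread over most roles. They included 2 of 4 regulators, 1 of 4 genes grouped with ISG15 and 6 of 7 sensors and degraders of double-stranded RNA. Of IFIT genes 2 of 4 fell, of membrane-acting factors 0 of 4 and of other antiviral effectors 3 of 6. Also falling were 4 of 7 IFI genes and others of less settled role, and 3 of 3 of the PARP9 group.

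Among the regulators, IRF9 (ENSG00000213928, chromosome 14, 24161053 to 24166565, plus strand in GENCODE 29 on GRCh38), the DNA-binding subunit of ISGF3, read 11.4, 11.3 and 9.74 CPM in the 3 high-dose libraries of aconite. At the low dose it read 19.6, 20.4 and 19.4 CPM. The groups did not overlap, and the log2 fold change was -0.89 ± 0.13 (SE, 3 libraries a group, edgeR adjusted p = 1.55e-06). STAT2 (chromosome 12, 56341597 to 56360155, minus strand), its partner in ISGF3, read 19.1, 13.8 and 19.8 CPM at the high dose against 24.3, 23.3 and 20.8 at the low dose without overlap, a change of -0.36 ± 0.09 (edgeR adjusted p = 0.00553). The lowest of its values came from aconite high 2, and without that library the adjusted p was 0.0896. IRF1, an activator induced by interferon gamma, had a log2 fold change of -0.01 and IRF7, the amplifier of type I interferon production, one of -0.11. IRF9 shares 48.4% of its annotated exon bases with an overlapping coding gene model on the same strand, which held a median of 87 counts, so reads could be split between them.

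The human ISG15 ligase is another member of the family of HECT and RCC1 domain ligases that holds HERC6. HERC6 was the 1 of 4 genes grouped here with ISG15 that fell. It read 5.97, 8.48 and 7.76 CPM at the high dose of aconite and 11.1, 14 and 13.2 at the low dose, a change of -0.80 ± 0.15 (edgeR adjusted p = 0.000129). ISG15, the ubiquitin-like modifier itself, read 21.8, 32.8 and 21.2 CPM against 25.9, 28.5 and 27.9, with aconite high 2 above all low-dose libraries and the other 2 below them. Its log2 fold change was -0.15 ± 0.17 (edgeR adjusted p = 0.614). Without the 4 libraries that stand apart it was -0.36 with an edgeR adjusted p of 0.0145. USP18, the protease that removes ISG15, and UBE2L6, its conjugating enzyme, had log2 fold changes of -0.11 and -0.53 that did not pass.

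Of the 7 sensors and degraders of double-stranded RNA 6 fell, with a median of -0.60 over the 7. OAS1 (chromosome 12, 112906777 to 112933222, plus strand), which makes the oligoadenylates that activate RNase L, read 24.8, 26 and 25.3 CPM at the high dose of aconite and 35.4, 42.6 and 36.8 CPM at the low dose. The log2 fold change was -0.60 ± 0.11 (edgeR adjusted p = 7.89e-05). DDX60 (chromosome 4, 168216293 to 168318807, minus strand), a helicase that aids the RNA sensors, read 4.43, 4.75 and 4.72 CPM against 8.08, 8.81 and 8.53, a log2 fold change of -0.88 ± 0.15 (edgeR adjusted p = 3.85e-05). Neither gene's groups overlapped. OAS2 fell by 1.34, OAS3 by 0.55, IFIH1 (MDA5) by 0.47 and DDX58 (RIG-I) by 0.60 on the log2 scale. OASL was the exception of the block at -0.09. OAS3 read 66.5 CPM in aconite high 2 and 120 in the other 2 high-dose libraries, and without that library, or without aconite low 2, its adjusted p was above 0.05. The call of OAS2 also ended without aconite low 2 (0.0649).

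Of the IFIT genes, which bind RNA with foreign ends, IFIT1 read 4.34, 7.9 and 4.69 CPM at the high dose of aconite and 6.7, 11.7 and 8.3 CPM at the low dose, so the groups overlapped. Its log2 fold change was -0.72 ± 0.20 (edgeR adjusted p = 0.0105), and the call ended without aconite high 1, aconite high 3 or aconite low 2 (up to 0.195). IFIT3 fell by 0.46 on the log2 scale, and IFIT2 and IFIT5 had values of -0.06 and 0.13 that did not pass. None of the membrane-acting factors passed: IFITM1 had -0.92 ± 0.41, IFITM3 -0.37, BST2 0.16 and IFITM2 0.23. IFITM1 shares 32.5% of its exon bases with IFITM2, so the counts of the pair are less certain.

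MX1 (chromosome 21, 41420304 to 41459214, plus strand), a dynamin-like GTPase that traps viral nucleocapsids, read 6.39, 8.33 and 5.81 CPM at the high dose of aconite and 10.9, 17.9 and 13 CPM at the low dose, without overlap. The change was -1.07 ± 0.19 (edgeR adjusted p = 0.000101). CMPK2, a mitochondrial nucleotide kinase encoded beside RSAD2, fell by 1.09 and SAMD9, a restriction factor of poxviruses, by 0.62. RSAD2 (viperin), ISG20 and SAMD9L did not pass, at -0.80, -0.06 and -1.39.

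Among the remaining genes IFI44 fell by 0.61, IFI44L by 1.42, EPSTI1 by 1.35 and XAF1, a partner of the apoptosis inhibitor XIAP, by 1.57 on the log2 scale. XAF1 lay at 0.42, 0.439 and 0.415 CPM against 1.06, 1.71 and 0.968, and its edgeR adjusted p of 0.0494 rose above 0.05 without any 1 of the 6 libraries (up to 0.232). EPSTI1 lost its call without 4 of the 6 (up to 0.156), all but aconite high 2 and aconite low 3, IFI44L without aconite low 2 or aconite high 3 (0.147), and IFI44 without aconite low 2 (0.0591). IFI6, a mitochondrial and endoplasmic reticulum protein, read 16, 12.3 and 16.7 CPM against 20.8, 27 and 22.1, without overlap, but its log2 fold change of -0.62 ± 0.25 did not pass (edgeR adjusted p = 0.0972). DTX3L (chromosome 3, 122564238 to 122575203, plus strand), a ubiquitin ligase, read 81.6, 62.7 and 79.6 CPM against 106, 104 and 96.7 a change of -0.46 ± 0.08 (edgeR adjusted p = 5e-05). Its partner PARP9, an ADP-ribosyltransferase family protein encoded head to head with it, fell by 0.52, as did PARP14.

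The count of 21 held at 21 with DESeq2, with other size factors and with the replicate block, was 24 without the 4 libraries that stand apart and ran from 14 (without aconite low 2) to 20 when single libraries were left out. A fit of the 2 compared groups alone called 2, IRF9 (edgeR adjusted p = 0.0217) and DDX60 (0.0273), and its log2 fold changes stayed within 0.02 of those above for each of the 21 members. In the same comparison the ribosomal protein genes had a median of 0.26. Of the 10 epithelial markers CEACAM5 rose by 0.91 and KRT20 by 0.22 and VIL1 changed by -0.26. The summed level of the 10 in unscaled CPM was 10785 to 11650 at the high dose and 11414 to 12778 at the low dose. LUM was 1.64 ± 0.863 CPM against 0.784 ± 0.334 (SD, 3 libraries a group, edgeR adjusted p = 0.0188). The fibroblast list summed to 2.27 to 2.57 unscaled CPM against 2.06 to 2.44. Unscaled sums also carry differences in library scaling, so they are not on the scale of the LUM values. No leukocyte or endothelial marker passed. The part of these genes in the result was not tested.

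**Figure D2:**
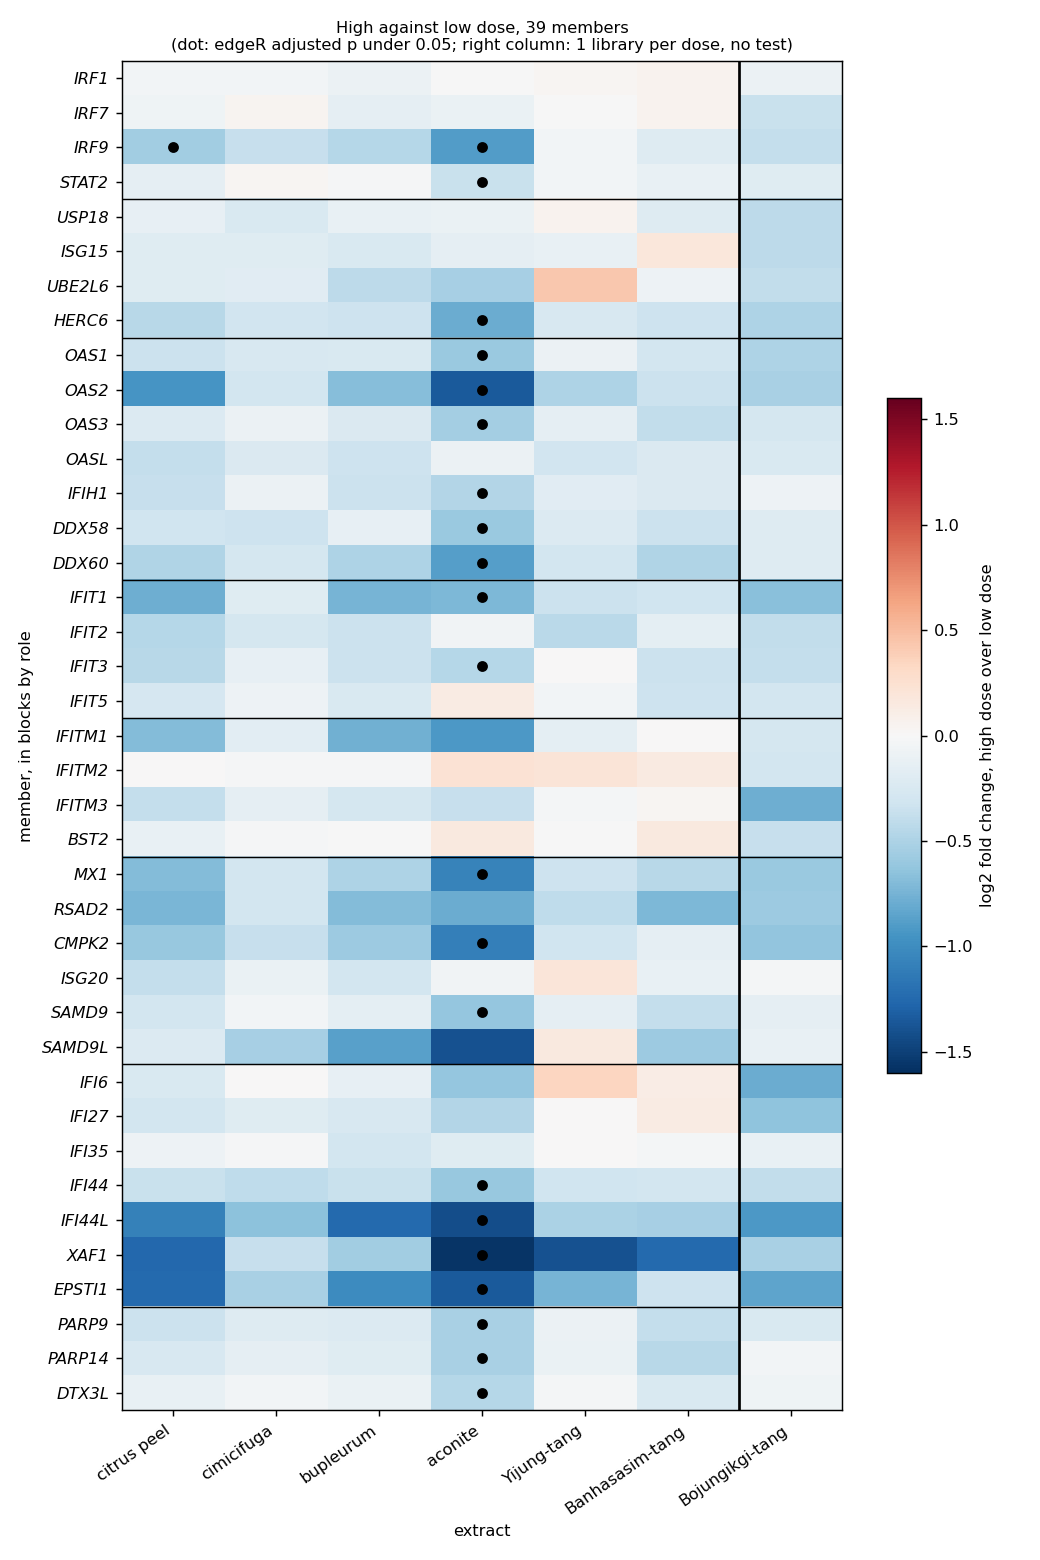
Log2 fold change of high over low dose (colour) for the 39 members (rows, in blocks by role) in 7 extracts (columns). Dots mark an edgeR adjusted p under 0.05, of which 21 lie in aconite and 1 in citrus peel; Bojungikgi-tang has 1 library per dose and no test.

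The other 5 replicated extracts gave 1 call between high and low dose, IRF9 in citrus peel. IRF9 read 11.5, 13.1 and 13.3 CPM at the high dose of citrus peel and 16.6, 19.9 and 19.5 at the low dose, a change of -0.56 ± 0.12 (edgeR adjusted p = 0.0499). Over all genes 0.0546% were lower and 0.0121% higher. Without any 1 of 5 of the 6 libraries that p rose above 0.05, up to 0.387. Counts of members called were 0 for cimicifuga (0.485% of all genes lower and 0.419% higher), bupleurum (0.121% and 0.176%), Yijung-tang (0.0182% and 0.0849%) and Banhasasim-tang (0.14% and 0.091%). DESeq2 called 3 members in citrus peel, 0 in cimicifuga, 2 in bupleurum, 0 in Yijung-tang and 2 in Banhasasim-tang. At an unadjusted edgeR p under 0.05 there were 23 members in citrus peel, 5 in cimicifuga, 19 in bupleurum, 1 in Yijung-tang and 14 in Banhasasim-tang. Without Banhasasim-tang high 3 the call count for Banhasasim-tang was 9, and without Banhasasim-tang high 1 it was 4. Without the 4 libraries that stand apart it was 5 in citrus peel and 4 in bupleurum.

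The direction was nonetheless one-sided. Members can shift together within a library, so counts of members by direction or overlap, here and below, are not separate observations. The median over the members of log2 CPM minus each member's mean over 57 libraries varied within doses of aconite. It was 0.06, 0.32 and 0.11 at the low dose and -0.11, 0.07 and 0.37 at the medium dose. High-dose values were -0.29, -0.26 and -0.30. The members as a set, with the library as the unit, were not tested. The log2 fold change was below 0 for 39 of 39 members in citrus peel, 36 in cimicifuga, 39 in bupleurum, 36 in aconite, 31 in Yijung-tang and 30 in Banhasasim-tang, where 49.1% to 50.9% of all genes were below 0. Medians over the members were -0.35, -0.20, -0.29, -0.53, -0.11 and -0.24 in that order. Every high-dose library lay below every low-dose library for 27 members in citrus peel (7.56% of all genes), 9 in cimicifuga (8.6%), 23 in bupleurum (7.36%), 6 in Yijung-tang (7.67%) and 16 in Banhasasim-tang (6.41%). The reverse held for 1 member in aconite (9.86%) and 1 in Yijung-tang (8.23%), and for 0 in citrus peel (7.81%), cimicifuga (8.13%), bupleurum (7.76%) and Banhasasim-tang (7.23%). Without Banhasasim-tang high 2 the number below 0 in Banhasasim-tang was 38, and over the other settings and left-out libraries no extract had fewer than 26. Of the 39 members, 24 were below 0 in all 6 extracts, 61.5% against 7.34% of all genes tested. IFITM2 and IFI6 were below 0 in only 3 extracts, and IRF1, IRF7, BST2 and IFI27 in 4.

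Some members near the threshold recurred between extracts. IFIT1 read 5.79, 4.6 and 3.82 CPM at the high dose of citrus peel against 7.44, 8.77 and 8.4 at the low dose, a log2 fold change of -0.78 ± 0.19 (edgeR adjusted p = 0.0819). In bupleurum it read 4.18, 4.84 and 5.75 CPM against 7.8, 7.7 and 9.13, a change of -0.74 ± 0.19 (edgeR adjusted p = 0.0703). Neither pair of groups overlapped, and neither difference passed the threshold. In bupleurum IFIH1 had -0.35 ± 0.09 (edgeR adjusted p = 0.0869) and IRF9 -0.46 ± 0.12 (0.101), and in Banhasasim-tang PARP14 had -0.45 ± 0.12 (0.0916). The epithelial marker VIL1 was lower at the high dose in bupleurum and in cimicifuga (-0.18 in each). In cimicifuga the smallest adjusted p of a member was 0.227, for IRF9 at -0.37. In Yijung-tang IRF9 had -0.04 and MX1 -0.33, and no member had an adjusted p under 0.63.

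Whether the high-against-low change differed between the 2 extracts of a set was tested directly. The edgeR interaction term called 0 members for aconite against bupleurum (1.8% of all genes in either direction), 0 for cimicifuga against citrus peel (0.115%) and 0 for Banhasasim-tang against Yijung-tang (0.0%). DESeq2 also called 0 in each, and at an unadjusted edgeR p under 0.05 there were 10, 3 and 1 members. The calls in aconite are therefore not shown to differ from the values in bupleurum. Without aconite high 1 the first of these counts was 1. Of the marker lists CEACAM5 passed there (0.63).

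Between medium and low dose 0 members were called by edgeR or DESeq2 in any of the 6 extracts. At an unadjusted edgeR p under 0.05 there were 1 member in citrus peel, 3 in aconite and 0 in the other 4. Over all genes, 0.801% were called in either direction in aconite and 0.0% in the other 5. Medians over the members lay between -0.09 (bupleurum) and -0.00 (Yijung-tang). In aconite the medium dose varied between libraries: MX1 read 8.81, 11.3 and 19.6 CPM and OAS1 30.1, 32.1 and 45.2 CPM, with aconite medium 3 highest for both.

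**Figure D3:**
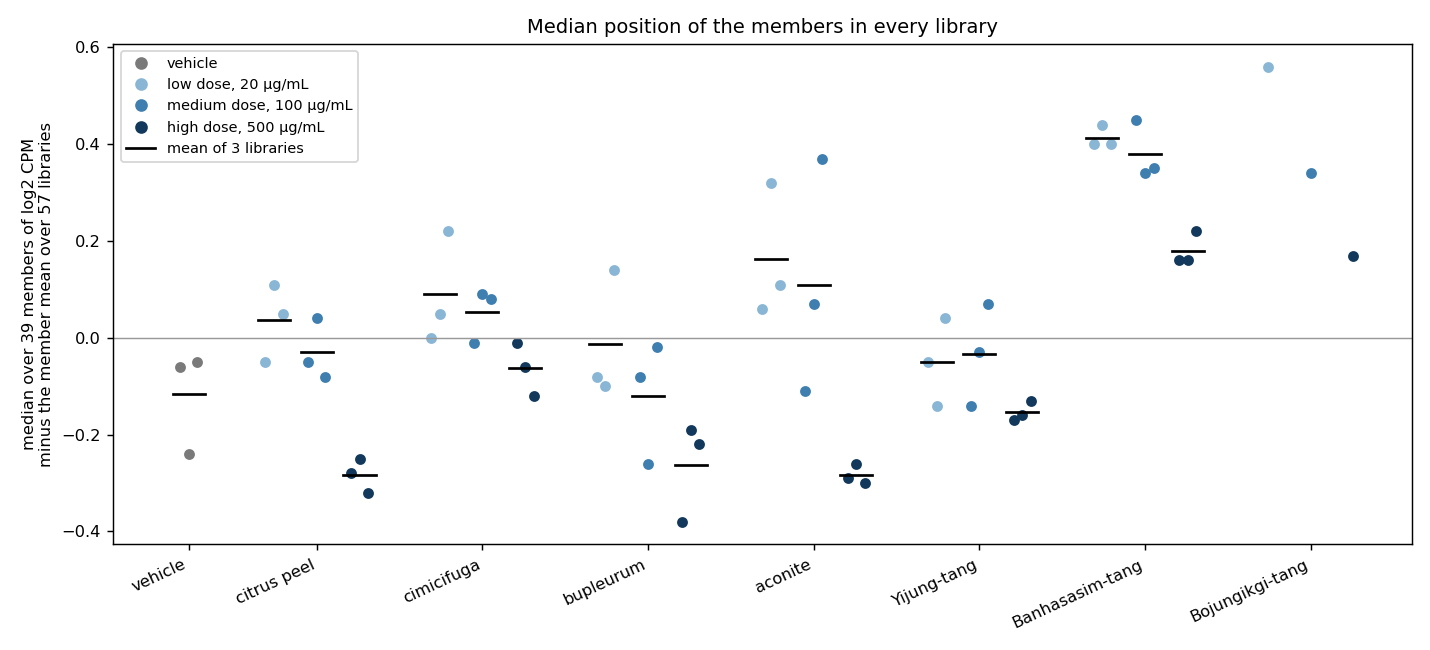
Median over the 39 members of log2 CPM minus each member's mean over 57 libraries (y axis), per library, by extract and dose (x axis); bars are means of 3 libraries. The 3 high-dose libraries of aconite sit between -0.30 and -0.26 and those of citrus peel between -0.32 and -0.25, whereas all 9 libraries of Banhasasim-tang sit between 0.16 and 0.45.

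Against vehicle, extract and library set cannot be told apart, and all 18 comparisons share the same 3 vehicle libraries. Vehicle lies in the low range of RN7SL2, and all libraries of aconite and Banhasasim-tang lie in the high range. The part of this split was not tested. Banhasasim-tang stood above vehicle: 20 members rose at the low dose (1.39% of all genes higher), 18 at the medium dose (1.36%) and 1 at the high dose (0.807%), and 0 fell. At the low dose MX1 read 17.6, 19.6 and 17.5 CPM against 10.6, 8.55 and 9.29 in vehicle, a log2 fold change of 0.95 ± 0.19 (edgeR adjusted p = 0.00257). IFIT1 read 12.4, 12.6 and 12.8 CPM against 7.33, 6.15 and 7.34, a change of 0.87 ± 0.19 (edgeR adjusted p = 0.00739). IRF9 read 23.3, 19.7 and 24 CPM against 17.4, 12.2 and 14, a change of 0.64 ± 0.13 (edgeR adjusted p = 0.00274). None of these groups overlapped, and of the 3 calls only that of IFIT1 ended with a library left out (vehicle 2, 0.054). Every library lay above every vehicle library for 28 members at the low dose (14.4% of all genes), 26 at the medium dose (14.3%) and 13 at the high dose (6.6%). IFIT5, PARP9 and OAS1 had the smallest adjusted p of the low dose (8.83e-05, 0.000204 and 0.000266 by edgeR) at changes of 0.66, 0.65 and 0.64, and IFI44L the largest change that passed, 1.59. At the high dose only IFITM1 passed, at 1.73 ± 0.302 CPM (SD, n = 3) against 0.652 ± 0.518. Its call ended without any 1 of 5 of the 6 libraries (edgeR adjusted p up to 0.32), all but vehicle 1. Of the marker lists KRT8 was lower than in vehicle at the medium and low dose (-0.30 and -0.29), and its part was not tested. Leaving out vehicle 2 took the count at the medium dose from 18 to 8. At the low dose the lowest count was 14, without vehicle 1 or vehicle 2, and without the 4 libraries that stand apart the counts were 6, 23 and 24 at the high, medium and low dose. At the high dose the range was 0 (without Banhasasim-tang high 3, vehicle 2 or vehicle 3) to 4 (without Banhasasim-tang high 2).

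Aconite lay on both sides of vehicle. At the low dose 5 members rose and 0 fell (0.698% of all genes higher): IRF9, HERC6, OAS1, IFIH1 and SAMD9, by 0.34 to 0.52 on the log2 scale. At the medium dose OAS3, IFIT5 and SAMD9 rose (2.47%). At the high dose IRF9, STAT2, DDX60 and DTX3L fell (7.28%) and IFIT5 rose (8.58%), and the members' share is near that of all genes there. IRF9 was 19.8 ± 0.541 CPM at the low dose, 14.6 ± 2.61 in vehicle and 10.8 ± 0.932 at the high dose (SD, n = 3), with log2 changes against vehicle of 0.46 and -0.43. DTX3L at the high dose was the only 1 of these 13 calls that no left-out library ended, and counts ran from 0 to 3 at the low dose (0 without aconite low 2 or vehicle 2), 0 to 7 at the medium dose (0 without aconite medium 3, 7 without aconite medium 1) and 3 to 6 at the high dose (3 without vehicle 3, 6 without aconite high 2). Fitted on each pair of groups alone, they were 1, 2 and 0, and without the 4 libraries that stand apart 7, 5 and 3. At the high dose CEACAM5, KRT20, CDX2, CD68 (0.57) and LUM (0.88) of the marker lists were also higher than in vehicle and VIL1 lower, and CDX2 was higher at the medium dose, and their part was not tested. Citrus peel, cimicifuga, bupleurum and Yijung-tang had 0 members called by edgeR at any dose. Shares of all genes called in either direction at the high, medium and low dose were 0.0243%, 0.0% and 0.00607% for citrus peel and 1.33%, 0.0303% and 0.0% for cimicifuga. They were 1.52%, 0.406% and 0.795% for bupleurum and 1.14%, 1.64% and 1.51% for Yijung-tang. DESeq2 called 2 for bupleurum at the high dose, as edgeR did without vehicle 3, and 0 in the other 11, and at an unadjusted edgeR p under 0.05 there were 2 to 11 members per comparison.

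Extracts of the same library set were also compared at the same dose, a comparison added after the values had been seen. Banhasasim-tang stood above Yijung-tang: the log2 fold change was above 0 for 39 members at the low dose, 38 at the medium dose and 35 at the high dose, with medians of 0.51, 0.45 and 0.38. At the low dose OAS1, IFIT5 and PARP9 were higher by the test (0.188% of all genes), at the medium dose IRF9, HERC6 and OAS1 (0.206%), and at the high dose 0 (0.346% in either direction; 3 with DESeq2, 24 at an unadjusted edgeR p under 0.05). All libraries of Banhasasim-tang lay above all of Yijung-tang for 27 members at the low dose (4.93% of all genes), 30 at the medium dose (4.14%) and 22 at the high dose (5.11%). OAS1 read 44.7, 47 and 46.2 CPM at the low dose of Banhasasim-tang against 30, 30.7 and 31.8 for Yijung-tang, a change of 0.57 ± 0.11 (edgeR adjusted p = 0.0032). At the medium dose it read 53.4, 43.7 and 43.1 CPM against 28.9, 29.4 and 31.1, a change of 0.65 ± 0.11 (edgeR adjusted p = 0.000318). OAS1 at both doses and IFIT5 were the calls that no left-out library ended. Counts ran from 2 (without Banhasasim-tang low 3 or Yijung-tang low 2) to 5 (without Yijung-tang low 3) at the low dose and from 1 (without Banhasasim-tang medium 1, Yijung-tang medium 1 or Yijung-tang medium 2) to 4 at the medium dose. At the high dose they were 3 without Banhasasim-tang high 1, 1 without Banhasasim-tang high 2, 4 without Banhasasim-tang high 3 and 0 otherwise. Fitted on each pair of groups alone, they were 15, 13 and 0 at the low, medium and high dose, and without the 4 libraries that stand apart 9, 10 and 2. Ribosomal protein genes had medians of -0.04, -0.01 and 0.15 in these comparisons.

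**Figure D4:**
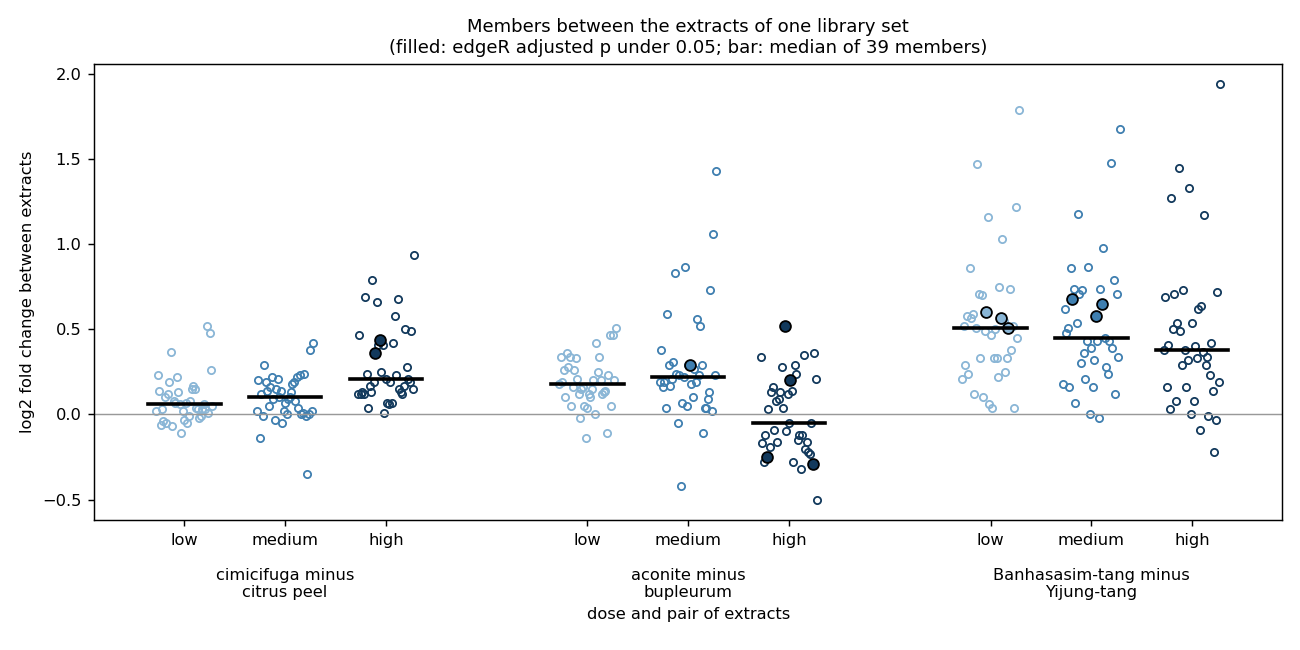
Log2 fold change of the 39 members (points) between the extracts of 1 library set, by dose (x axis). Filled points have an edgeR adjusted p under 0.05 and bars are medians, which lie at 0.51, 0.45 and 0.38 for Banhasasim-tang minus Yijung-tang at the low, medium and high dose.

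In set 6 the members had median differences of 0.18, 0.22 and -0.05 for aconite minus bupleurum at the low, medium and high dose. The log2 fold change was above 0 for 36, 36 and 18 of the 39 members. Of all genes, 49.2% to 51.7% were below 0 in these comparisons. At the high dose CEACAM5, KRT20 and LUM of the marker lists were higher in aconite (0.44, 0.28 and 1.06). By the test IRF1 (0.20) and IFIT5 (0.52) were higher in aconite (5.9% of all genes) and STAT2 (-0.29) and DTX3L (-0.25) lower (3.95%). IFIT5 read 10.1, 13.3 and 10.1 CPM in aconite against 6.73, 7.94 and 8.21 in bupleurum, and its call was the only 1 of the 4 that no left-out library ended. The count was 1 without aconite high 2, bupleurum high 1 or bupleurum high 2, 2 without bupleurum high 3, 6 without aconite high 1 and 7 without aconite high 3, and a fit of the 2 groups alone called 0. Without the 4 libraries that stand apart it was 1. At the medium dose IRF1 was higher in aconite by 0.29 ± 0.07 (edgeR adjusted p = 0.00818, 0.958% of all genes higher). That count was 0 without aconite medium 3 or bupleurum medium 2 and 3 without aconite medium 1. At the low dose 0 members were called (0.127% of all genes in either direction, 0 members with DESeq2, 4 at an unadjusted edgeR p under 0.05). In set 5 IFIH1 and IFIT3 were higher in cimicifuga than in citrus peel at the high dose, by 0.36 and 0.44 (0.637% of all genes). All 39 members were above 0 there, with a median of 0.21, and 20 did not overlap (8.22% of all genes). Without any 1 of 5 libraries the count was 0, and without cimicifuga high 3 it was 1. At its medium and low doses 0 members were called by edgeR or DESeq2, and 0 at an unadjusted edgeR p under 0.05 (0.0% of all genes).

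Bojungikgi-tang, with 1 library per dose and therefore no test, had all 39 members lower at the high than at the low dose, where 51.0% of all genes were lower. The median log2 ratio of CPM + 1 was -0.38 against -0.00 over all genes, and 0 members reached a change of 1. MX1 read 13.6, 17 and 21.1 CPM at the high, medium and low dose and OAS1 36.7, 41.9 and 52.4 CPM. IRF9 read 19.1, 19.5 and 25.2 CPM and ISG15 26.3, 31 and 35.4 CPM. The low-dose library was the highest of the 3 in each of these genes. The median at the medium over the low dose was -0.20, with 33 of 39 members lower.

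Other genes of the pathway were followed in lists written with earlier results known. In aconite between high and low dose 1 of 6 receptor genes rose, IFNGR1, at 103 ± 36.3 CPM against 66.7 ± 3.89 (SD, 3 libraries a group). STAT3, a transcription factor activated by many cytokines, fell by 0.20 on the log2 scale. It was 86.5 ± 15.8 CPM against 99.5 ± 3.98 (SD). Of 8 tested nucleic acid sensors and adaptors DHX58 (LGP2) fell by 0.80 and STING1 by 0.32, and 0 rose. Of 5 tested negative regulators the phosphatase PTPN2 rose by 0.25, at 57.3 ± 9.86 CPM against 47.8 ± 0.366 (SD). The high-dose libraries thus spread widely for IFNGR1, STAT3 and PTPN2, and no fit with a library left out is given for these lists. None of 17 genes of MHC class I presentation passed by edgeR (median -0.00), and 12 tested genes of the interferon gamma type were split, with WARS1 and ICAM1 rising by 0.59 and 0.80 and GBP2 falling by 0.32. Of 35 other interferon-stimulated genes 13 fell and 0 rose, among them TRIM38 by 0.38, TRIM5 by 0.34 and APOL2 by 0.40. These counts stand against 5.03% of all genes lower and 5.81% higher.

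The high-against-low change in aconite was set beside the promoters as a description. Of the 22 members with an ISRE core 13 fell in aconite, with a median log2 fold change of -0.54 over the 22. Of the 11 members whose promoter window lacks an ISRE core 7 fell, with a median of -0.60. IRF9, whose 150 bases are shown above, STAT2, OAS1, HERC6, DDX58, CMPK2 and XAF1 make up the latter. Of these, IRF9 and OAS1 hold a GAS core. ISG15, with cores that overlap in the sequence above, was among the members that did not pass.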

How the data were processed

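Directional mRNA libraries were made from total RNA, per the labels' protocols. Per the submitters' processing notes, the tools include RSEM 1.3.3 and STAR 2.7.3a on GRCh38, with Trim Galore 0.6.5 and FastQC 0.11.9 also named; annotation release and strand setting are not stated there. The authors deposited expected counts per gene (RSEM's estimated counts, which share reads among overlapping or near-identical genes) for 60675 genes. Of 270 columns 60 matched a sample description and 210 were not used. The 8.68% of values that were not whole were rounded. Gene names came from a GENCODE 29 gene table matched by identifier.

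In R 4.3.3, filterByExpr by group kept 16485 genes, and edgeR 4.0.16 (with limma 3.58.1) fitted 19 groups of 57 libraries with TMM scaling and the quasi-likelihood test, with Benjamini-Hochberg adjustment over all genes tested. The biological coefficient of variation was 8.04%. Alternatives were DESeq2 1.42.0, other scaling, no filter, the compared groups alone, a replicate block, and fits with libraries left out. The steps were tested on simulated data. The members, the lists and the tests were chosen with earlier results of these data known, and contrasts between extracts of a set were added after seeing the values. Values per library were to be given for up to 6 members of the smallest adjusted p in each high-against-low comparison and for IRF9, STAT2, ISG15, IFI6 and IFIT1, and up to 4 genes of the smallest adjusted p were to be named from each other list. Members with values per library outside that rule were chosen after their values were seen. Whether equal replicate numbers deviate together from their group means was checked as a correlation: only bupleurum medium against low had all 3 above 0.1 (0.22, 0.134 and 0.138), with 0 members called with or without the block. Some results are not reported here.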

Additional observations from a re-analysis of the deposited data

How the results depend on the processing

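The direction of the members between high and low dose held under other scaling, with 38 of 39 members below 0 in citrus peel, 36 in cimicifuga, 39 in bupleurum, 36 in aconite, 30 in Yijung-tang and 30 in Banhasasim-tang. Values of single members were tallied over the settings. Of the fits with a library left out, only that with the largest adjusted p entered per member and comparison, so the tally leans towards lost calls. In it 0 values were reversed where a call was involved, 832 kept their side of the threshold, 111 lost a call, 37 gained one and 7 without a call changed sign. Counts of members called moved more than 1.5 times in the following settings, and the cause was not tested. The call in citrus peel between high and low dose went to 0 under other scaling. With DESeq2 the counts between high and low dose were 3 in citrus peel, 2 in bupleurum and 2 in Banhasasim-tang, against vehicle 2 for bupleurum and 2 for Banhasasim-tang at the high dose, and for Banhasasim-tang minus Yijung-tang 3, 5 and 5 at the high, medium and low dose. Without a filter on low counts they were 12 in citrus peel, 1 in cimicifuga, 6 in bupleurum and 9 in Banhasasim-tang between high and low dose. Against vehicle at the high, medium and low dose they were then 4, 2 and 3 for citrus peel, 2, 2 and 6 for cimicifuga, 4, 2 and 3 for bupleurum, 9, 10 and 10 for aconite, 2, 3 and 2 for Yijung-tang and 15 for Banhasasim-tang at the high dose. The interaction of aconite and bupleurum gave 4 without the filter, cimicifuga minus citrus peel at the high dose 4, aconite minus bupleurum 5 at the medium and 1 at the low dose, and Banhasasim-tang minus Yijung-tang 17, 18 and 20. Fitted on the compared groups alone, high against low dose gave 3 in citrus peel, 1 in cimicifuga, 3 in bupleurum and 2 in aconite. Against vehicle that fit gave 0, 2 and 1 for aconite at the high, medium and low dose and 0 for Banhasasim-tang at the high dose, cimicifuga minus citrus peel at the high dose 6, aconite minus bupleurum 0 at the high and 0 at the medium dose, and Banhasasim-tang minus Yijung-tang 13 and 15 at the medium and low dose. Without the 4 libraries that stand apart, high against low dose gave 5 in citrus peel, 1 in cimicifuga and 4 in bupleurum. Against vehicle it gave 2 for bupleurum at the low dose, 3 and 5 for aconite at the high and medium dose and 6 for Banhasasim-tang at the high dose, the interaction of aconite and bupleurum 1, cimicifuga minus citrus peel 4 and aconite minus bupleurum 1 at the high dose, and Banhasasim-tang minus Yijung-tang 2, 10 and 9. Replicate numbers passed the check of pairing in 1 comparison (bupleurum medium against low dose, 0 calls with the replicate block). The other comparisons did not pass it. In set 5, replicate 3 of citrus peel and cimicifuga read 67 to 114 CPM of RN7SL2, and replicates 1 and 2 read 3.44 to 9.9. The replicate number therefore goes with a split between libraries in that set. With the replicate block the counts that moved were 2 in citrus peel and 2 in bupleurum between high and low dose, 2 for Banhasasim-tang at the high dose against vehicle, 2 for aconite minus bupleurum at the medium dose, and 1, 5 and 7 for Banhasasim-tang minus Yijung-tang, and 21 members were called in aconite as without it. With single libraries left out, high against low dose gave 0 to 1 in citrus peel, 14 to 20 in aconite and 0 to 9 in Banhasasim-tang. Against vehicle the ranges were 0 to 2 for bupleurum at the high dose, 3 to 6, 0 to 7 and 0 to 3 for aconite at the high, medium and low dose, and 0 to 4, 8 to 19 and 14 to 21 for Banhasasim-tang. The interaction of aconite and bupleurum ranged from 0 to 1, cimicifuga minus citrus peel at the high dose from 0 to 1, aconite minus bupleurum from 1 to 7 and from 0 to 3 at the high and medium dose, and Banhasasim-tang minus Yijung-tang from 0 to 4, 1 to 4 and 2 to 5. Medium against low dose gave 0 members in each setting and with each library left out. The batch term for RN7SL2, fitted in the set of citrus peel and cimicifuga, left counts of 1 and 0 between high and low dose. For Bojungikgi-tang the median was -0.40 with a pseudocount of 0.1. With only bases before the start, 21 members held an ISRE core and 11 a GAS core. Depth limits members of few counts, among them SAMD9L (1 to 20 counts a library), RSAD2 (3 to 30) and XAF1 (0 to 60).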

Other observations

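ICAM1, an adhesion molecule that binds leukocyte integrins and is induced by several cytokines, was singled out after its values were seen because it moved against the members in aconite. It was 11.3 ± 0.55 CPM at the high dose of aconite and 6.46 ± 0.263 at the low dose (SD, 3 libraries a group), where 21 of the 39 members fell. The high-against-low change of ICAM1 was larger in aconite than in bupleurum by 0.81 ± 0.14 on the log2 scale (SE, edgeR adjusted p of the interaction 0.000137). In Banhasasim-tang ICAM1 was 8.06 ± 0.306 CPM at the low dose, 9.57 ± 0.377 at the medium dose and 8.96 ± 1.56 at the high dose. In Yijung-tang it was 4.74 ± 0.518, 4.45 ± 0.336 and 4.45 ± 0.441 CPM at those doses, and the differences of 0.74, 1.10 and 1.02 passed the edgeR test at each dose. WARS1, a tryptophan tRNA synthetase induced by interferon gamma, was 148 ± 3.7 CPM at the high and 98.5 ± 4.12 at the low dose of aconite, and its interaction with bupleurum was 0.57 ± 0.06 (edgeR adjusted p = 3.18e-08).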
